A study of Mus musculus with 9 samples.

Results

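The 8 genes described here, Srebf2, Insig1, Hmgcs1, Idi1, Fdps, Fdft1, Sqle and Cyp51, encode a transcription factor, a sterol-sensing protein and 6 enzymes of cholesterol synthesis. They were found by symbol among the 54532 genes of the deposited expression table, and each symbol matched 1 row. Their RNA was measured in duodenum of mice in 3 groups of 3 libraries. CeD+GR mice were a delayed-type hypersensitivity (DTH) model of celiac disease that first received composite nanoparticles of gliadin and rapamycin and then enhanced gluten stimulation. CeD mice were the same model with enhanced gluten stimulation and no nanoparticles. Control mice were wild type (WT) and were stimulated with gluten in non-enhanced form, so gluten was given in all 3 groups. The sources used here do not give strain, age, sex, doses or times. Each library is called by its group and its number, and whether each came from its own animal is not stated. A p-value below thus reflects spread among these samples that may be technical. Celiac disease is an immune disorder of the small intestine driven by gluten, gliadin is a fraction of gluten proteins, and rapamycin inhibits the kinase complex mTORC1. The study asked what the nanoparticles change in the inflamed duodenum of the model.

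Cells make cholesterol from acetyl-CoA through mevalonate, farnesyl diphosphate, squalene and lanosterol. The transcription factor SREBP2, the product of Srebf2, is held in the endoplasmic reticulum by the escort protein SCAP and by INSIG proteins while sterols are plentiful. When sterols fall, SREBP2 moves to the Golgi, is cut by a pair of proteases and turns on the enzymes of the pathway, Insig1 and its own gene. In the small intestine the pathway runs beside uptake of dietary cholesterol by enterocytes, and mTORC1 activity is known to favour SREBP processing.

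Promoter sequence was looked at because these genes are known to share regulators. Of the 8 genes, 5 (Cyp51, Insig1, Idi1, Hmgcs1 and Srebf2) had an entry in the RefSeq promoter table of the build GRCm38.p6, which is mm10. The 250 bases before the start that RefSeq gives were searched on both strands for the letters TCACNCCAC, a form of the sterol regulatory element bound by SREBPs, and for CCAAT, the letters bound by NF-Y, a partner of SREBP2. They were also searched for GGGCGG, the GC box bound by Sp1. CCAAT was found in 5 of the 5, against 33.8% of all 32851 promoters of the table, and GGGCGG in 5 of the 5, against 32.7%. The 2 motifs together were found in 5 of the 5, against 11%. TCACNCCAC was found in 1 of the 5, Hmgcs1, as TCACCCCAC starting 137 bases before the start, against 1.05% of all promoters. A match describes letters only and not a bound site. A missing match does not show that a promoter lacks a sterol regulatory element, since only this form was searched, in 250 bases. The promoters of the 3 most abundant members are given on the strand of the gene. Capitals mark TCACNCCAC and CCAAT, which reads ATTGG where it lies on the other strand, while the GC boxes are in lower case. They lie at chr13:119690101-119690350, plus strand, for Hmgcs1, at chr5:28071162-28071411, plus strand, for Insig1 and at chr15:82147019-82147268, plus strand, for Srebf2.
Hmgcs1: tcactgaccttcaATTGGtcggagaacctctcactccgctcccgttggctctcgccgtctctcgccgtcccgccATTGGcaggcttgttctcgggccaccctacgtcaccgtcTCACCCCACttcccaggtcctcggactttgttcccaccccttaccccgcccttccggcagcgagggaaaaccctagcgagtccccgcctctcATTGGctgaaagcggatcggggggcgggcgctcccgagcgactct
Insig1: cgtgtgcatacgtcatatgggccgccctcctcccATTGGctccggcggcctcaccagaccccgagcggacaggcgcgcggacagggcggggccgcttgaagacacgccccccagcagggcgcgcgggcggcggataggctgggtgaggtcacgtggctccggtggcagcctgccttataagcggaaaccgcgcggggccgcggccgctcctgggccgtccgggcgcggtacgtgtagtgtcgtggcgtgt
Srebf2: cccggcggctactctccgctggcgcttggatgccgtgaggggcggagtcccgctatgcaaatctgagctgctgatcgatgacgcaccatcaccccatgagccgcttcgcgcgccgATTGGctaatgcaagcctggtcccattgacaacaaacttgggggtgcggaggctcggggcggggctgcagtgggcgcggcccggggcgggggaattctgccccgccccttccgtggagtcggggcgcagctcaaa

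The libraries differed in their cell types in ways that the groups do not account for. Between 15373260 and 16852104 reads per library fell in genes. Levels are in FPKM (fragments per kilobase of gene length, scaled to library size). Of the 12 enterocyte markers 12 passed the filter on low values. Vil1, a brush border protein, stood at 257 to 690 FPKM in CeD+GR, 477 to 927 in CeD and 514 to 701 in control. RNA of this marker was thus present in every library. The 257 FPKM was in CeD+GR 3, which was the lowest library for 10 of the 12 markers and the highest for 1, Alpi. The 12 summed to 7387 FPKM in CeD+GR 3, against 11148 to 27094 in CeD and 13462 to 23922 in control. CeD+GR 3 held transcripts of gastric mucous cells or duodenal mucous glands. In it Tff2, a peptide of gastric mucous cells, stood at 116219 FPKM, against at most 46.5 FPKM in the other 8 libraries, and Muc6, a gland mucin, at 3268 FPKM. The 8 markers of such cells and glands summed to 0.230 to 139866 FPKM in CeD+GR, 0.139 to 50.6 in CeD and 0.609 to 5.28 in control. Muc5ac was listed at 0 in all libraries other than CeD+GR 3. CeD+GR 2 held the fat cell hormone Adipoq at 26.6 FPKM, and CeD 1 the pancreatic enzyme precursor Ctrb1 at 1472 FPKM. The 3 libraries numbered 1 had high Paneth cell and proliferation markers, described below. The sets of values are therefore given with and without the libraries concerned. In bulk tissue, fewer cells of a type and less RNA per cell cannot be told apart.

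By mean FPKM over the 9 libraries, which is a level per gene length, Hmgcs1 was the highest of the 8 genes at 24.6 FPKM. Insig1 followed at 16.2 FPKM, Srebf2 at 11.2 FPKM, Cyp51 at 7.04 FPKM, Fdft1 at 6.59 FPKM, Sqle at 3.00 FPKM, Idi1 at 2.04 FPKM and Fdps at 0.199 FPKM. Neighbours in this order kept their order within each of the 9 libraries, with 2 exceptions. Hmgcs1 was above Insig1 in 8 of 9 libraries. Cyp51 was above Fdft1 in 4 of 9 libraries, so their order is not separable from the spread.

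Srebf2, the gene of SREBP2 (ENSMUSG00000022463, mm10 chr15:82147181-82205379, plus strand), stood at 10.1, 5.82 and 18.4 FPKM across CeD+GR 1 to 3, at 15.8, 8.75 and 10.0003 FPKM across CeD 1 to 3 and at 17.2, 7.41 and 7.08 FPKM across control 1 to 3. CeD+GR 3, control 1 and CeD 1 were the high libraries and CeD+GR 2 the lowest, and the 3 groups overlapped. The means were 11.4 ± 6.38 FPKM in CeD+GR, 11.5 ± 3.77 FPKM in CeD and 10.6 ± 5.74 FPKM in control (SD, n = 3 each). The values rest on 659 to 2247 reads per library.

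Insig1 encodes an anchor of the SCAP-SREBP complex and is itself an SREBP target (ENSMUSG00000045294, chr5:28071363-28078662, plus strand). It stood at 13.1, 7.45 and 34.5 FPKM across CeD+GR 1 to 3, at 20.1, 14.9 and 10.1 FPKM across CeD 1 to 3 and at 22.6, 11.1 and 11.7 FPKM across control 1 to 3. The same 3 libraries were highest as for Srebf2, and CeD+GR 2 was again the lowest. Within CeD+GR the highest library exceeded the lowest 4.63-fold, a wider span than in CeD or in control. The means were 18.3 ± 14.2 FPKM in CeD+GR, 15.0 ± 5.01 FPKM in CeD and 15.1 ± 6.49 FPKM in control (SD, n = 3 each).

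Hmgcs1, the cytosolic HMG-CoA synthase at the head of the mevalonate route (ENSMUSG00000093930, chr13:119690379-119708260, plus strand), stood at 16.1, 15.7 and 42.6 FPKM across CeD+GR 1 to 3. Its values were 21.3, 20.4 and 38.1 FPKM across CeD 1 to 3 and 19.7, 28.2 and 19.7 FPKM across control 1 to 3. CeD+GR 3 and CeD 3 stood above the other 7 libraries, and replicate 1 was not the highest in any group. The means were 24.8 ± 15.4 FPKM in CeD+GR, 26.6 ± 9.94 FPKM in CeD and 22.5 ± 4.93 FPKM in control (SD, n = 3 each). An antisense gene, Gm48342, covers 12.1% of its exon bases, at a mean of 0.0355 FPKM.

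Idi1, the isomerase that makes the reactive isoprene unit (ENSMUSG00000058258, chr13:8885501-8892451, plus strand), stood at 2.69, 0.761 and 2.98 FPKM across CeD+GR 1 to 3. It stood at 3.82, 1.62 and 0.641 FPKM across CeD 1 to 3 and at 4.80, 0.390 and 0.626 FPKM across control 1 to 3. It had the widest span of the 8 genes, 12.3-fold between control 1 and control 2. Replicate 1 stood at 3.38 times the mean of replicates 2 and 3 in CeD and at 9.44 times in control. The low libraries rest on few reads, 20 in control 2 and 37 in control 3.

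Fdps, farnesyl diphosphate synthase (ENSMUSG00000059743, chr3:89093588-89101959, minus strand), was the only one of the 8 genes below the filter of a mean of 0.5 FPKM. It stood at 0.107, 0.196 and 0.436 FPKM across CeD+GR 1 to 3, at 0.213, 0.165 and 0.0721 FPKM across CeD 1 to 3 and at 0.117, 0.0487 and 0.437 FPKM across control 1 to 3. These values rest on 3 to 31 reads per library and 124 reads in all. The gene Gm43738 on the same strand shares 85.9% of its coding bases and was listed at a mean of 0.00236 FPKM. The sources used here do not state how reads that fall in 2 genes were counted, and the level of Fdps is uncertain.

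Fdft1, squalene synthase, which commits the route to sterols (ENSMUSG00000021273, chr14:63145150-63179578, minus strand), stood at 4.43, 5.11 and 12.9 FPKM across CeD+GR 1 to 3. Its values lay between 4.84 and 6.37 FPKM in CeD and between 6.37 and 6.86 FPKM in control. CeD+GR 3 was 1.88-fold above the next highest library, and the other 8 libraries lay within 4.43 to 6.86 FPKM. The opposite-strand gene Ctsb, a lysosomal protease at a mean of 114 FPKM, covers 18.3% of the exon bases of Fdft1 and none of its coding bases. The sources used here do not state the strand setting of the counting.

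Sqle, squalene epoxidase, a rate-controlling enzyme after squalene (ENSMUSG00000022351, chr15:59315077-59331192, plus strand), stood at 3.09, 0.973 and 6.23 FPKM across CeD+GR 1 to 3. It stood at 4.34, 2.70 and 1.87 FPKM across CeD 1 to 3 and at 4.91, 1.02 and 1.85 FPKM across control 1 to 3. CeD+GR 3, control 1 and CeD 1 led, as for Srebf2 and Insig1, and the span was 6.40-fold. Sqle and Fdft1, neighbours in the route, did not keep a fixed ratio. Sqle over Fdft1 was 0.697, 0.191 and 0.483 in CeD+GR 1 to 3, 0.896, 0.459 and 0.294 in CeD 1 to 3 and 0.716, 0.156 and 0.290 in control 1 to 3. Replicate 1 had the highest ratio in each group.

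Cyp51, the lanosterol demethylase (ENSMUSG00000001467, chr5:4081145-4104746, minus strand), stood at 5.12, 3.87 and 17.9 FPKM across CeD+GR 1 to 3. Its values were 6.33, 5.80 and 4.87 FPKM across CeD 1 to 3 and 8.29, 5.06 and 6.19 FPKM across control 1 to 3. CeD+GR 3 was 2.16-fold above the next highest library, which was the largest such lead among the 8 genes. The other 8 libraries lay within 3.87 to 8.29 FPKM.

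**Figure D1:**
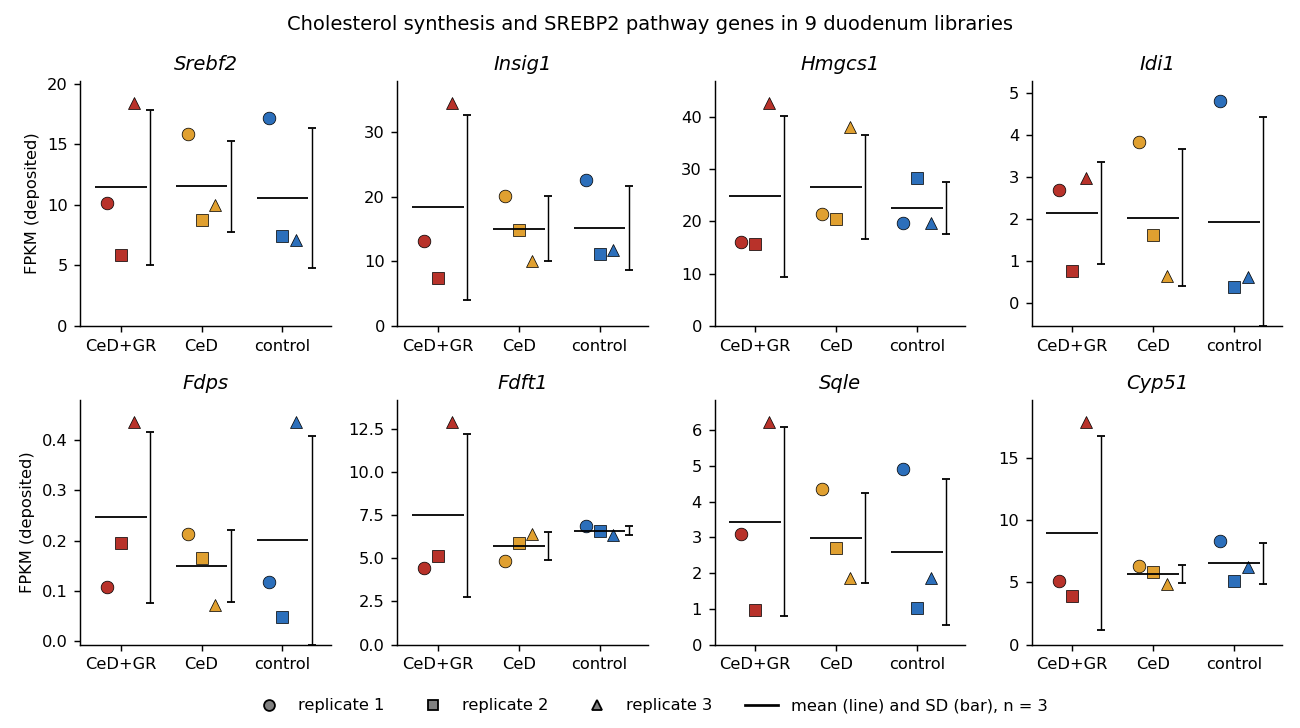
FPKM of the 8 genes in the CeD+GR, CeD and control libraries, 1 panel per gene, with a linear axis. Symbols mark the replicate number, lines the group mean and bars the SD (n = 3). CeD+GR 3 is the highest of the 9 libraries for Srebf2, Insig1, Hmgcs1, Fdft1, Sqle and Cyp51, and the groups overlap in every panel.

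CeD was compared with control to ask what sets the gluten-stimulated model apart from WT mice. None of the 8 genes passed the test. Of the 7 genes tested, 0 were called by limma at an adjusted p of 0.05, and 0% of the 14683 genes tested were called. At an unadjusted p under 0.05, 103 genes passed in all (0.701%) and 0 of the 7, while limma-voom on recovered reads called 0 genes and gave 63 at an unadjusted p under 0.05. Their log2 fold changes, on the scale of log2(FPKM + 0.5), ranged from -0.20 for Fdft1 to 0.33 for Idi1. The median was 0.19, with 5 of 7 positive, against 0.00 over all genes tested. Srebf2 differed by 0.19 (SE 0.47, 95% interval -0.87 to 1.26; limma, adjusted p = 1) and Hmgcs1 by 0.19 (SE 0.42, 95% interval -0.75 to 1.14). Insig1 differed by 0.01 (SE 0.53), Sqle by 0.31 (SE 0.62) and Cyp51 by -0.17 (SE 0.48). The interval was narrowest for Fdft1, -0.9995 to 0.60, and widest for Idi1, -1.39 to 2.05, so changes of the size of these bounds could not be told from none. In 0 of the 7 genes did CeD and control not overlap, against 4.69% of all genes tested. The sign of the median turned on single libraries. It was -0.10 without CeD 1, -0.16 without control 2 and -0.02 without control 3.

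Same-numbered libraries of CeD and control varied together across genes, so the pairs were also read by number. In replicate 1, 1 of the 7 genes (Hmgcs1) was higher in CeD, with a median log2 difference of -0.16. In replicate 2, 5 of 7 were higher in CeD, with a median of 0.23, and Idi1 had the largest difference, 1.62 FPKM in CeD and 0.390 FPKM in control. In replicate 3, 5 of 7 were higher in CeD, with a median of 0.01, and Hmgcs1 had the largest, 38.1 FPKM in CeD and 19.7 FPKM in control. No gene was higher in CeD in all 3 pairs. Of the genes counted as higher in the third pair, Fdft1 stood at 6.37 FPKM in both of its libraries. Sqle stood at 1.87 FPKM in CeD and 1.85 FPKM in control, and Idi1 at 0.641 FPKM in CeD and 0.626 FPKM in control.

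CeD+GR was compared with CeD to ask what the nanoparticles changed within the model. Again 0 of the 7 tested genes were called by limma, as were 0% of the 14683 genes tested. At an unadjusted p under 0.05, 425 genes passed in all (2.89%) and 0 of the 7, and limma-voom called 0 genes and gave 392 at an unadjusted p under 0.05. The log2 fold changes ran from -0.20 for Hmgcs1 to 0.32 for Cyp51, with a median of 0.06, against 0.01 over all genes tested, and 4 of 7 were positive. Srebf2 differed by -0.11 (SE 0.47, 95% interval -1.17 to 0.96; limma, adjusted p = 1), Insig1 by 0.06 (SE 0.53) and Sqle by -0.02 (SE 0.62). Idi1 differed by 0.14 (SE 0.76), Fdft1 by 0.22 (SE 0.35) and Cyp51 by 0.32 (SE 0.48). The groups overlapped in all 7 genes, where 6.05% of all genes tested had groups that did not overlap. These values depended on which CeD+GR library was included. Without CeD+GR 3 all 7 were negative, with a median of -0.51 and with Hmgcs1 at -0.67 (SE 0.31), Insig1 at -0.53 (SE 0.42) and Srebf2 at -0.51 (SE 0.45). Without CeD+GR 2 all 7 were positive, with a median of 0.54, and without CeD+GR 1 the median was 0.02. Of the CeD libraries, leaving out CeD 1 gave a median of 0.25 and leaving out CeD 3 one of -0.18.

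CeD+GR was also compared with control, with which the other comparisons share libraries, so the 3 sets of values are not independent. Again 0 of the 7 genes were called by limma, as were 0% of all genes tested, with 400 genes (2.72%) and 0 of the 7 at an unadjusted p under 0.05 and 0 called by limma-voom, which gave 342. The log2 fold changes ran from -0.01 for Hmgcs1 to 0.47 for Idi1, with a median of 0.09 and 6 of 7 positive, against a median of -0.00 over all genes tested. The groups overlapped in all 7 genes, against 5.58% of genes with no overlap. Without CeD+GR 3 the median was -0.43 with 1 of 7 positive, and without CeD+GR 2 it was 0.56 with 7 of 7 positive. Without CeD+GR 1 it was 0.23, also with 7 of 7 positive. It was 0.39 without control 1, -0.02 without control 2 and -0.00 without control 3. Fdps, fitted only without the filter on low values, over 31123 genes, differed by -0.08 between CeD and control, 0.18 between CeD+GR and CeD and 0.11 between CeD+GR and control (SE 0.25 each).

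**Figure D2:**
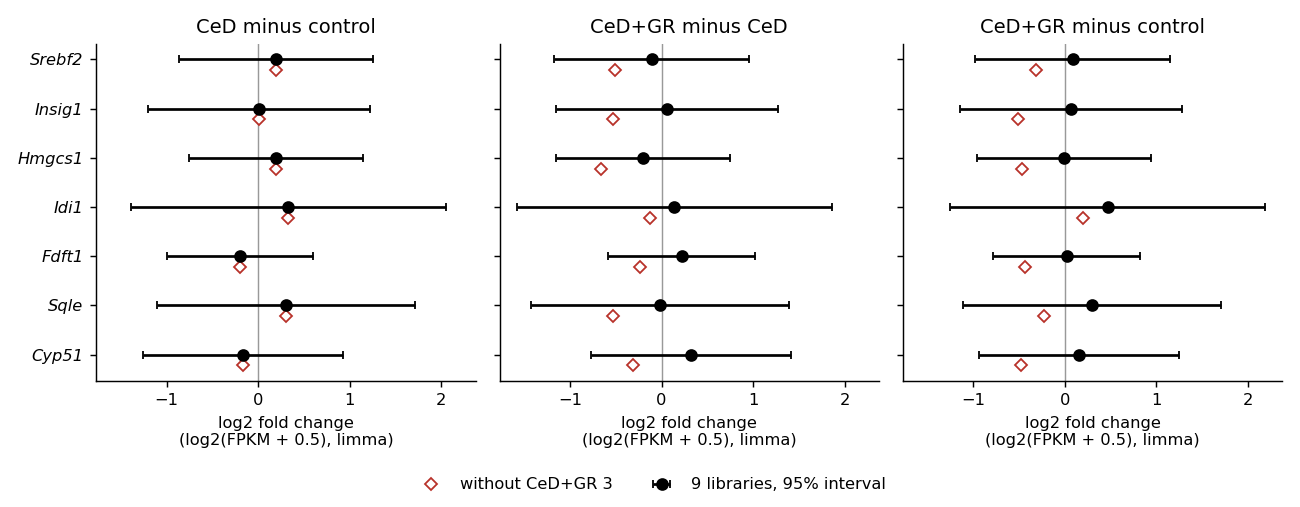
Log2 fold changes of the 7 tested genes in the 3 comparisons, from limma on log2(FPKM + 0.5). Filled points and bars give the fit of all 9 libraries with its 95% interval, and open diamonds the fit without CeD+GR 3. All intervals span 0, and the diamonds lie left of the points in both comparisons with CeD+GR.

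The wide intervals came with library values that moved together across the genes. In 6 of the 7 tested genes CeD+GR 3 was the highest of the 9 libraries, Idi1 being the exception, against 23.8% of all genes tested. CeD+GR 2 was the lowest in 5 of 7 (Srebf2, Insig1, Hmgcs1, Sqle and Cyp51), against 22.1%. Relative to the mean of the other 8 libraries, CeD+GR 3 held 3.14 times as much Cyp51, 2.48 times as much Insig1, 2.40 times as much Sqle and 2.22 times as much Fdft1. The ratio was 1.90 for Hmgcs1, 1.79 for Srebf2 and 1.56 for Idi1, and the median log2 ratio over the 7 genes was 1.09, against -0.06 over all genes tested. The 8 genes together took 0.0622% of the reads in CeD+GR 3 and 0.0189% in CeD+GR 2, with the other 7 libraries between 0.0244% and 0.0443%. CeD+GR 3 is the library with the gastric mucous or gland transcripts, and it was the lowest of 9 in 10 of the 12 enterocyte markers. The part of these differences in cell makeup in the levels of the 8 genes was not tested.

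The replicate 1 libraries were the other recurring pattern. Replicate 1 stood above replicates 2 and 3 in CeD as well as in control for 5 of the 7 genes (Srebf2, Insig1, Idi1, Sqle and Cyp51), against 30.5% of all genes tested. It did so in all 3 groups for 0 of the 7, against 13.5%, since CeD+GR 3 exceeded CeD+GR 1 in all 7. Fdft1 and Hmgcs1 did not follow: Fdft1 was lowest in CeD 1 within CeD and highest in control 1 within control. The median log2 ratio of replicate 1 to the mean of replicates 2 and 3 over the 7 genes was -0.66 in CeD+GR, 0.67 in CeD and 0.96 in control. Proliferation markers had the same order in CeD and control but not in CeD+GR. Replicate 1 was highest within CeD and within control for 11 of the 11 and in all 3 groups for 7 of the 11. Their median log2 ratio of replicate 1 to replicates 2 and 3 was 0.83 in CeD+GR, 1.80 in CeD and 1.64 in control. The sum of the 11 was 94.98, 29.0 and 69.2 FPKM across CeD+GR 1 to 3, 125, 50.7 and 32.4 FPKM across CeD 1 to 3 and 93.2, 36.0 and 39.5 FPKM across control 1 to 3. The lowest library in this sum, CeD+GR 2, was also the lowest in the sum of the 8 genes. Paneth cell markers were highest in replicate 1 of all 3 groups for 7 of 8, with sums of 1419 to 2860 FPKM in the replicate 1 libraries and 89.4 to 228 FPKM in the other 6. CeD+GR 3 was low in Paneth markers and highest in the 8 genes. The part of these cell types in the result was not tested.

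**Figure D3:**
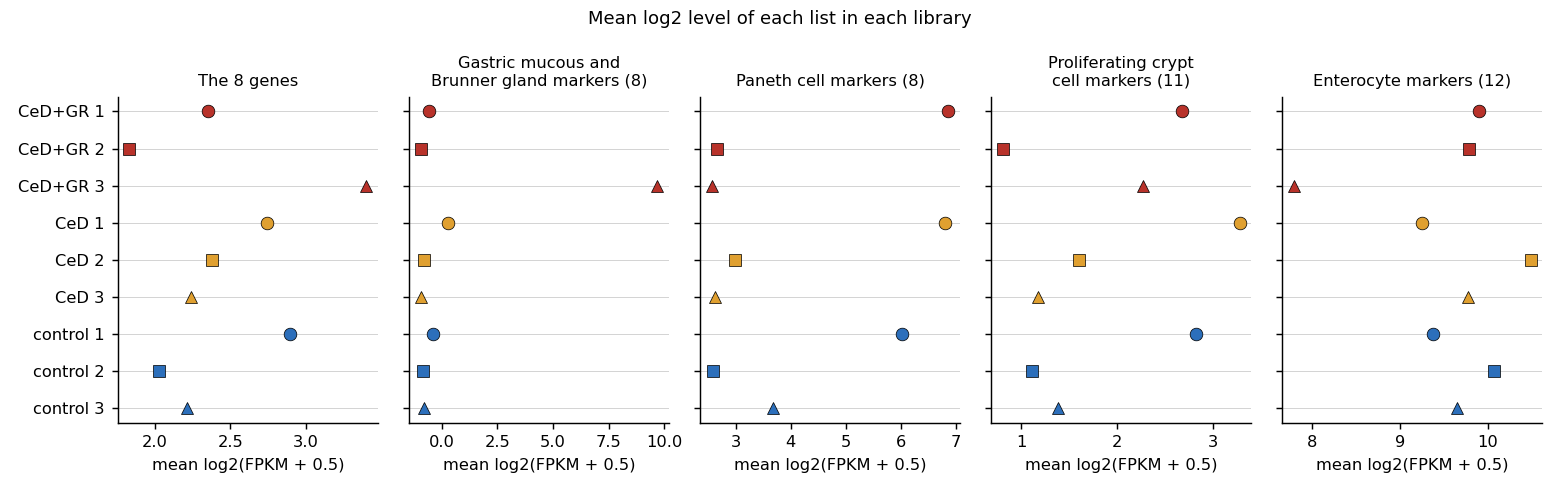
Mean log2(FPKM + 0.5) of the 8 genes and of 4 marker lists in each of the 9 libraries, CeD+GR at the top, CeD in the middle and control at the bottom. The gastric mucous and gland markers stand out in CeD+GR 3 alone, and the Paneth markers in the 3 replicate 1 libraries. The 8 genes are highest in CeD+GR 3 and lowest in CeD+GR 2.

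The remaining enzymes of the route did not share the lead of CeD+GR 3 to the same extent. Of 16 others, among them Acat2 at the entry and Dhcr7 near the end, 16 were tested and 0 were called in any comparison. In CeD against control 11 were positive and 5 negative (median 0.06), in CeD+GR against CeD 8 and 8 (median 0.02), and in CeD+GR against control 7 and 9 (median -0.02). CeD+GR 3 was the highest library in 3 of the 16 (Mvd, Lss and Tm7sf2, the last 2 named after their values were seen) and the lowest in 2. Mvd, which makes isopentenyl diphosphate, stood at 3.68, 3.52 and 10.1 FPKM across CeD+GR 1 to 3, 3.51 to 3.88 FPKM in CeD and 3.86 to 5.00 FPKM in control. That makes it close in pattern to Cyp51 and Fdft1, with 1 library far above 8 similar ones.

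Pmvk, phosphomevalonate kinase, was the only one of these 16 enzymes whose groups did not overlap in a comparison, where 4.69% of all genes tested did not in CeD against control and 6.05% in CeD+GR against CeD, a share near that of 1 in 16. It lay at 5.78 to 6.94 FPKM in CeD+GR, 4.13 to 5.57 FPKM in CeD and 5.71 to 7.79 FPKM in control. Its log2 fold change was -0.39 (SE 0.20) in CeD against control and 0.37 (SE 0.20) in CeD+GR against CeD (limma, adjusted p = 1 in each), so neither passed.

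Among the proteins that process SREBPs and sense sterols, 10 were tested and 0 called in any comparison. For 3 of the 10, CeD+GR 3 was the highest library, against 23.8% of all genes tested, and for 1 the lowest, and the median log2 ratio of CeD+GR 3 to the mean of the other 8 was -0.00. Scap, the escort of SREBP2, stood at 4.18, 4.22 and 7.42 FPKM across CeD+GR 1 to 3, 3.47 to 5.71 FPKM in CeD and 3.65 to 5.69 FPKM in control. Like Srebf2, it was highest in CeD+GR 3 and then in CeD 1 and control 1. Mbtps1, the first of the proteases that cut SREBP2, was also highest in CeD+GR 3, at 10.5 FPKM, against 5.87 to 9.89 FPKM in the other 8 libraries. Erlin1, a sterol-sensing protein of the endoplasmic reticulum, was lowest there, at 10.1 FPKM, against 18.0 to 31.0 FPKM in the other 8. Insig2, the INSIG protein that is not an SREBP2 target, ran the other way. It stood at 14.7, 16.6 and 12.9 FPKM across CeD+GR 1 to 3, 10.5, 16.8 and 14.6 FPKM across CeD 1 to 3 and 14.2, 18.3 and 20.6 FPKM across control 1 to 3. Insig2 over Insig1 was 1.12, 2.23 and 0.376 in CeD+GR 1 to 3, 0.521, 1.13 and 1.45 in CeD 1 to 3 and 0.628, 1.65 and 1.76 in control 1 to 3. Insig1 was thus the higher of the pair in CeD+GR 3, CeD 1 and control 1 and the lower in the other 6 libraries.

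Srebf1, the paralogue of Srebf2 whose products favour fatty acid genes, had another pattern. It stood at 35.3, 36.1 and 15.0 FPKM across CeD+GR 1 to 3, at 12.4, 24.0 and 14.4 FPKM across CeD 1 to 3 and at 15.0, 17.6 and 17.0 FPKM across control 1 to 3. CeD+GR 1 and CeD+GR 2 were above all other libraries, and CeD+GR 3, the highest in Srebf2, was within the range of CeD and control. The log2 fold change of Srebf1 was 0.70 (SE 0.37; limma, adjusted p = 1) in CeD+GR against CeD and 0.69 (SE 0.37) in CeD+GR against control. Without CeD+GR 3 these were 1.11 (SE 0.28) and 1.09 (SE 0.28), with unadjusted p of 0.00481 and 0.00514 and adjusted p of 1 by limma. Srebf1 over Srebf2 was 3.49, 6.20 and 0.817 in CeD+GR 1 to 3, 0.786, 2.75 and 1.44 in CeD 1 to 3 and 0.871, 2.37 and 2.40 in control 1 to 3. The 2 highest ratios were in CeD+GR 1 and CeD+GR 2, and the groups overlapped.

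**Figure D4:**
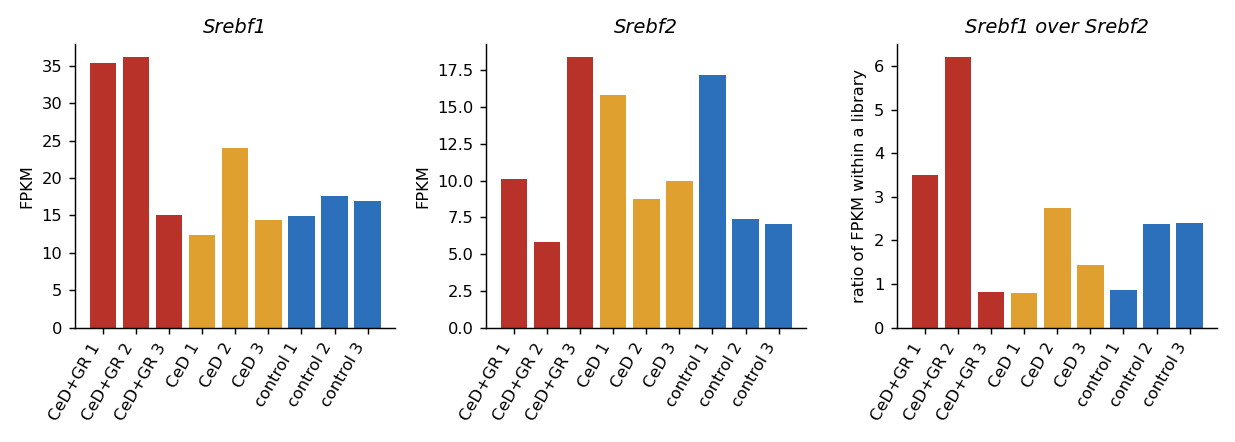
FPKM of Srebf1 and of Srebf2, and their ratio within each library, for the CeD+GR, CeD and control libraries, with axes from 0. Srebf1 is highest in CeD+GR 1 and CeD+GR 2, Srebf2 in CeD+GR 3, and the ratio ranges from 0.786 in CeD 1 to 6.20 in CeD+GR 2.

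Of 10 further SREBP2 targets 9 were tested and 0 called. Of the 9, 5 were highest in CeD+GR 3, and it was lowest in 3, Stard4, Npc1l1 and Mylip. Npc1l1, which takes up dietary sterol at the enterocyte surface, stood at 188, 217 and 27.2 FPKM across CeD+GR 1 to 3, against 106 to 243 FPKM in CeD and 98.7 to 157 FPKM in control. CeD+GR 3 was therefore low in sterol uptake RNA while highest in 6 of the synthesis and regulator genes.

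Npc2, a lysosomal carrier of cholesterol, was the only one of the 9 targets whose CeD+GR libraries did not overlap with CeD or with control, against 6.05% and 5.58% of all genes tested. It stood at 20.1, 22.5 and 26.7 FPKM across CeD+GR 1 to 3, at 12.4, 14.2 and 13.1 FPKM across CeD 1 to 3 and at 15.3, 16.8 and 14.9 FPKM across control 1 to 3. All 3 CeD+GR libraries lay above the other 6, and all 3 CeD libraries lay below control. The log2 fold change was 0.77 (SE 0.18, 95% interval 0.36 to 1.19; limma, adjusted p = 1) in CeD+GR against CeD, 0.54 (SE 0.18) in CeD+GR against control and -0.24 (SE 0.18) in CeD against control. None passed the adjustment over all genes. Npc2 was named by a rule that takes the smallest unadjusted p of each list, so its interval is that of a picked gene. With 1 gene in 9, the count is too small to set apart from the shares over all genes. In CeD against control the groups did not overlap for 2 of the 9 targets, Npc2 and Mylip, against 4.69% of all genes tested. Mylip, a ubiquitin ligase, differed there by -0.24 (SE 0.28). For Npc2, the log2 fold change in CeD+GR against CeD was 0.67 (SE 0.17) without CeD+GR 3.

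**Figure D5:**
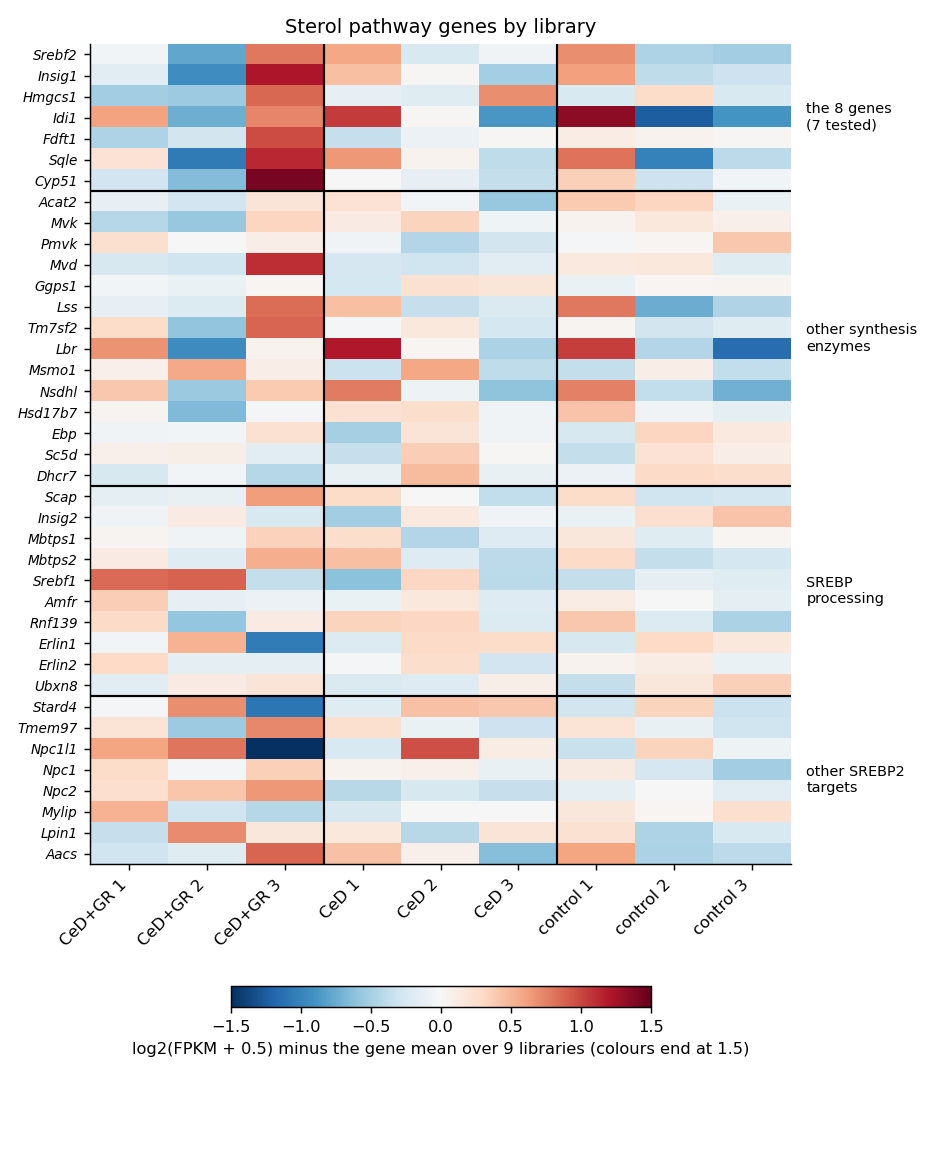
Log2(FPKM + 0.5) of the 7 tested genes and other sterol pathway genes in the 9 libraries, minus each gene's mean, with CeD+GR at the left, CeD in the middle and control at the right. Red is above and blue below the mean. The 7 tested genes at the top share the red column of CeD+GR 3, except that Idi1 is redder in CeD 1 and control 1, while Mvd, Lss and Tm7sf2 are the only other synthesis enzymes shown that are highest in CeD+GR 3.

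The genes whose values over the 9 libraries were most like those of the 7 tested genes were outside the sterol lists. Likeness was the Pearson correlation, over 9 libraries and 12384 candidate protein-coding genes, with the mean of the 7 tested genes after scaling. Fdps, below the filter, was left out of that mean, and likeness is a description. The 8 most alike were Slc29a3 (r = 0.986), a lysosomal nucleoside transporter, Nfe2l1 (0.982), Sec16a (0.980), Trim65 (0.979), Endod1 (0.973), Lrfn4 (0.973), Myo1c (0.972) and Adra2a (0.971). Without CeD+GR 3 and control 1, the libraries farthest from the median of that mean, r was 0.958 for Slc29a3, and it ranged from 0.909 for Adra2a to 0.958 over the 8. Slc29a3 stood at 1.43, 0.903 and 3.03 FPKM across CeD+GR 1 to 3, 1.77, 1.40 and 1.23 FPKM across CeD 1 to 3 and 2.27, 1.09 and 1.18 FPKM across control 1 to 3. Its high libraries were those of Srebf2. The points share libraries, and with them cell makeup.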

How the data were processed

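The authors deposited 1 table of FPKM per gene, 54532 genes in 9 libraries, with gene lengths and mm10 coordinates. Ribosomal RNA was depleted and a directional kit used, per the labels' protocols. The submitters' processing notes list DESeq2 1.20.0, featureCounts 1.5.0-p3, HISAT2 2.0.5, fastp and mm10, with no role or order, and neither the FPKM formula nor the strand setting is stated. FPKM times gene length gave whole reads, within a tolerance of 0.1, for 100% of the values above 0, and effective library sizes of 14410550 to 18206426.

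Deposited FPKM are not counts, so log2(FPKM + 0.5) was compared with limma 3.58.1 in R 4.3.3. The fit had 1 group-means model over 9 libraries, empirical Bayes moderation with a mean-variance trend, only genes averaging 0.5 FPKM or more (14683) and Benjamini-Hochberg adjustment over them at 0.05. Tests were two-sided, and the smallest p an exact permutation of 3 against 3 allows is 0.1. The steps were run on simulated data with independent errors for each gene and library. Those data lacked the shared deviations of the real libraries, so that run does not bear on them. Fold changes on this scale understate changes of low genes. Exon overlaps come from GENCODE M21, in which 98.33% of the 54409 matched identifiers have the same coordinates. Same-numbered libraries of CeD and control deviated together from their group means (r = 0.712, 0.367 and 0.410), so they were also read in pairs by number. CeD 3, however, correlated more with control 2 (r = 0.458) than with control 3. The main fit took no account of pairs, and a replicate block was an alternative setting. CeD+GR did not pair in replicate 3 (r = -0.120 with CeD and -0.110 with control).

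The members, the gene lists and the naming rule were chosen with earlier results of these data known. The rule named the 8 genes, Srebf1, Scap, Insig2 and Npc1l1, and of each list the 3 genes with the smallest unadjusted p in CeD against control and in CeD+GR against CeD. It also took the 8 genes most alike and markers where a library stood apart. Alternatives changed the pseudocount, filter, scaling, fit, replicate block and libraries. Some genes that the rule names are not reported here, though the counts over lists include them.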

Additional observations from a re-analysis of the deposited data

How the results depend on the processing

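Under 24 alternative settings 0 genes were called in CeD against control and in CeD+GR against CeD. In CeD+GR against control the count ranged from 0 to 1 when single libraries were left out. The 1 gene, Gm22615, a predicted gene outside the sterol lists, was called without control 1 (log2 fold change -4.31, limma, adjusted p = 0.0137). With the replicate number as a block, which in this balanced design cannot move the group differences, the pairing gave the same medians of the 7 tested genes, 0.19 in CeD against control, 0.06 in CeD+GR against CeD and 0.09 in CeD+GR against control. It called 0 genes, with 193, 805 and 643 at an unadjusted p under 0.05. The smallest adjusted p with the block was 0.236 in CeD against control, and over the alternatives of that comparison it ranged from 0.0697, with array weights, to 1. Array weights gave 1354 genes there at an unadjusted p under 0.05, against 103 in the main fit. In CeD+GR against control the smallest adjusted p by limma was 0.0917 without CeD+GR 3. It was 0.075 without CeD 1 and CeD+GR 3 together. In 62 of 504 values of the 7 genes under an alternative the sign turned, and none of these values was called. With replicates 2 and 3 only, the median was 0.24 in CeD against control, 0.39 in CeD+GR against CeD and 0.50 in CeD+GR against control. Without CeD 1 and CeD+GR 3 together it was -0.10, -0.27 and -0.43. Across pseudocounts, filters and scalings, with Fdps included where no filter was used, the medians kept their sign. Fdps rests on 3 to 31 reads per library and the lowest library of Idi1 on 20 reads, so small differences were not detectable there at this depth.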

Other observations

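The fatty acid genes under SREBP1 had high values in replicate 1 of CeD and of control, and some of them in CeD+GR 3. Of 13, 12 were tested and 0 called, and replicate 1 was highest within CeD and within control for 9 of the 12, against 30.5% of all genes tested. CeD+GR 3 was the highest library for 4 of the 12, against 23.8%, and the median log2 ratio of CeD+GR 3 to the mean of the other 8 was 0.36. The median log2 ratio of replicate 1 to replicates 2 and 3 was -0.21 in CeD+GR, 0.65 in CeD and 0.84 in control. Acly, which makes cytosolic acetyl-CoA, stood at 8.86, 4.32 and 17.4 FPKM across CeD+GR 1 to 3, 13.2, 6.14 and 5.86 FPKM across CeD 1 to 3 and 12.03, 4.55 and 4.20 FPKM across control 1 to 3. Fads1, a fatty acid desaturase, stood at 7.45, 4.89 and 8.03 FPKM across CeD+GR 1 to 3, 15.6, 7.23 and 8.32 FPKM across CeD 1 to 3 and 12.8, 5.30 and 4.79 FPKM across control 1 to 3. Scd2, another desaturase, was the only gene of the 12 whose CeD and control libraries did not overlap, at 3.75 to 4.05 FPKM in CeD and 2.41 to 2.98 FPKM in control (log2 fold change 0.49, SE 0.48; limma, adjusted p = 1), against 4.69% of all genes tested.

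A list of 11 genes of sterol handling was mostly low in CeD+GR 3, where most of the 8 genes were high. It held genes of sterol export and esterification, many of them targets of the sterol receptor LXR. It also held the LXR genes Nr1h2 and Nr1h3 and the lipoprotein genes Apob, Mttp and Apoa1. CeD+GR 3 was the lowest library for 8 of these 11 genes, against 20.4% of all genes tested. Among the 8 were Nr1h3, Apob, Mttp and Apoa1, named after their values were seen. Abcg5, which with Abcg8 returns sterols to the gut lumen, stood at 251, 196 and 70.2 FPKM across CeD+GR 1 to 3, 96.0, 197 and 142 FPKM across CeD 1 to 3 and 148, 245 and 241 FPKM across control 1 to 3. Soat2, the enterocyte enzyme that esterifies absorbed cholesterol, stood at 18.1 FPKM in CeD+GR 3 and at 55.8 to 110 FPKM in the other 8 libraries. Soat1, its relative in many other cell types, was the one of the 11 highest in CeD+GR 3, at 9.86 FPKM, against 1.63 to 3.49 FPKM elsewhere, and Nr1h2 and Abcg1, the first named after its values were seen, were neither highest nor lowest there. Enterocyte markers were also lowest in CeD+GR 3 in 10 of 12, and their part in these values was not tested. None of the 11 genes was called in any comparison by limma (0% of all genes tested in each).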
